A study of Mus musculus with 7 samples.

Results

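The respiratory chain of mitochondria consists of complexes I to V of the inner membrane, and its nuclear-encoded structural subunits were compared between mammary glands of mice on control chow and on chow that contained CLA, the conjugated isomers of linoleic acid. Members were chosen by gene symbol: the Ndufa, Ndufb, Ndufc, Ndufs and Ndufv genes followed by digits for complex I, Sdha to Sdhd for complex II, the Uqcr genes and Cyc1 for complex III, the Cox4 to Cox8 genes for complex IV and the Atp5 genes for complex V. Assembly factors were left out, as were Cox7a1, Cox8b and Cox7a2l, the last of which acts in joining complexes to each other. The rule gave 78 of 18193 genes with a value, namely 34 of complex I, 4 of complex II, 9 of complex III, 14 of complex IV and 17 of complex V. They were measured by 159 probe sets, and each gene was represented by the probe set with the highest mean log2 signal. Of the 78 members, 76 had a mean signal at or above the filter of 57.7 and were tested. Ndufb4, a complex I subunit, lay below it with signals of at most 52.7, and so did Cox7b2, a testis form of a complex IV subunit, with signals between 1.69 and 20.8.

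All mice were virgin FVB females of a PyV-MT strain, in which middle T of polyoma virus acts as an oncogene and gives rise to mammary tumours, and all were killed at 8 weeks of age. Control mice ate AIN93G chow and CLA mice ate chow with 1% CLA, in both cases for 4 weeks. The study placed 5 and 6 mice on these diets, and the arrays used here cover 3 control and 4 CLA glands. The labels name no promoter for the transgene, and no gland without the transgene was analysed. The values are MAS5 signal intensities, the linear brightness of a probe set after the authors scaled each array to the same trimmed mean. They come from whole glands, so fewer cells of a type and less RNA per cell cannot be told apart. The luminal markers of the gland were present on every array, with a summed signal of 136702 to 175143 in control and 151429 to 156607 in CLA glands. Basal epithelial markers summed to 4920 to 8152 in control and 8317 to 10322 in CLA glands, although 4 of the 9 had a change below 0. The lowest sum was that of control replicate 2, beside 8152 and 7925 on control replicates 1 and 3. The mean of the markers' log2 signals, each centred on its own average, overlapped between the groups. It was 0.07 on control replicate 1 and -0.05 on CLA replicate 3.

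Complex I takes electrons from NADH and complex II from succinate, and both pass them to ubiquinone. Complex III hands them on to cytochrome c, and complex IV from there to oxygen. The proton gradient built by complexes I, III and IV drives complex V, the ATP synthase. In a mammary gland these complexes are present in epithelium and stroma alike, and are abundant in brown fat and in muscle, where some subunits exist as tissue forms encoded by separate genes.

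Many promoters of these genes are known to bind nuclear respiratory factor 1 (NRF1). Its recognition letters, GCGCA and GCGC with any 1 base between them, were searched on both strands from 250 bases before to 50 bases after each RefSeq transcript start (build GRCm38.p6), which was possible for 63 of the 78 members. They were present for 15 members, 23.8%, against 5.19% of all 27025 genes in the table. Matches were found for 5 of 31 members of complex I, 2 of 3 of complex II, 1 of 5 of complex III, 1 of 9 of complex IV and 6 of 15 of complex V. The letters CCGGAAGT of the factor GABP were present for 5 members (7.94%, against 4.31% of all genes), AAGATGGCG of YY1 for 6 (9.52% against 1.64%) and TCAAGGTCA of the oestrogen-related receptors for 2 (3.17% against 0.466%). None of these motifs contains another, and a match describes letters and not a binding site.

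For each complex with a match that lies before the start together with its 25 flanking bases, the stretch is printed for such a member of smallest p, with the NRF1 letters in capitals and all sequences read 5′ to 3′ on the minus strand, on which these genes lie. They are shown because the same letters recur before genes of different complexes, and complex III has no such stretch.
Ndufs5, complex I, chr4:123718250-123718309: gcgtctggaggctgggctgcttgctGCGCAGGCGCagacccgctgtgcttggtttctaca
Sdha, complex II, chr13:74350304-74350363: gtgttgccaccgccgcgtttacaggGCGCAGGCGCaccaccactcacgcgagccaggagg
Cox6a1, complex IV, chr5:115349086-115349145: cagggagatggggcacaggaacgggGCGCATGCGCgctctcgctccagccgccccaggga
Atp5k, complex V, chr5:108434415-108434474: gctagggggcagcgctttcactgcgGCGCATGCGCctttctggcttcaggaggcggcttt
The capitals end 88 bases before the start of Ndufs5 and of Sdha, 152 before that of Cox6a1 and 40 before that of Atp5k. The log2 changes of these genes, CLA minus control, were -0.41, -0.15, -0.04 and 0.07. Over the members with a promoter in the table, the median change was -0.02 for the 14 tested ones with a match and -0.07 for the 47 without.

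Most subunit transcripts had estimated changes close to 0 between the diets. Of the 76 members tested, 74 had a log2 change of less than 0.3 in either direction, against 76.6% of all 12497 genes tested. The exceptions were Cox6a2, the muscle form of a complex IV subunit, at -1.75, and Ndufs5, a subunit of complex I, at -0.41. Limma called 0 members at an adjusted p under 0.05, where 0.0% of all genes were called, and the smallest adjusted p of a member was 0.817. At an unadjusted p under 0.05 there was 1 member, Cox6a2, which is 1.32% of the members against 5.39% of all genes. By direction, 1 member was lower, against 3.01% of all genes, and 0 were higher, against 2.38%. The 95% interval of the change lay within 1.5-fold in both directions for 66 of the 76 members, against 40.7% of all genes tested. Standard errors of the members ran from 0.10 to 0.61 on the log2 scale with a median of 0.14, against a median of 0.21 over all genes. Most members are bright, and bright genes differed less from them. Of the 2345 genes with a mean signal of 2000 or more, 2087 had a log2 change of less than 0.3. The interval lay within 1.5-fold for 1674 of these bright genes, and their median standard error was 0.15.

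Complexes I to IV had medians slightly below 0 and complex V a median slightly above. The median log2 change was -0.10 for complex I, -0.10 for complex II, -0.07 for complex III, -0.06 for complex IV and 0.02 for complex V, beside 0.03 for all genes tested. With each array centred on its median signal, the medians of complexes III and IV became 0.01 and 0.02 and that of all genes 0.11, so they stayed below the median of all genes, and complex V was at 0.10. That scaling left 32 of 76 members below 0, with 20 of complex I, 2 of complex II, 4 of complex III, 6 of complex IV and 0 of complex V. The share of all genes below 0 was not counted with that scaling or in the other alternative fits. As deposited, changes below 0 were seen in 28 of 33 members of complex I, 4 of 4 of complex II, 7 of 9 of complex III, 10 of 13 of complex IV and 5 of 17 of complex V, against 44.7% of all genes tested. Among the 2345 genes with a mean signal of 2000 or more, where most members lie, 45.6% were below 0. The low count of complex V did not hold in every fit. It rose to 10 members with means of probe sets. Leaving out CLA replicate 4 gave 12, and so did fitting the muscle score. In these 3 fits complex I had 29, 31 and 30 members below 0. Apart from median centring, the remaining alternatives gave 4 to 7 for complex V. The median of complex I was -0.06 without control replicate 2. That of complex IV was -0.15 without CLA replicate 4, -0.10 without control replicate 1, -0.03 without CLA replicate 1 and -0.01 without CLA replicate 3. That of complex V was -0.04 without CLA replicate 4, and with any other array left out it lay between 0.01, without control replicate 1, and 0.06, without CLA replicate 1. The muscle score as a covariate gave complex V a median of -0.05. Members share arrays, so these counts are not independent observations.

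**Figure D1:**
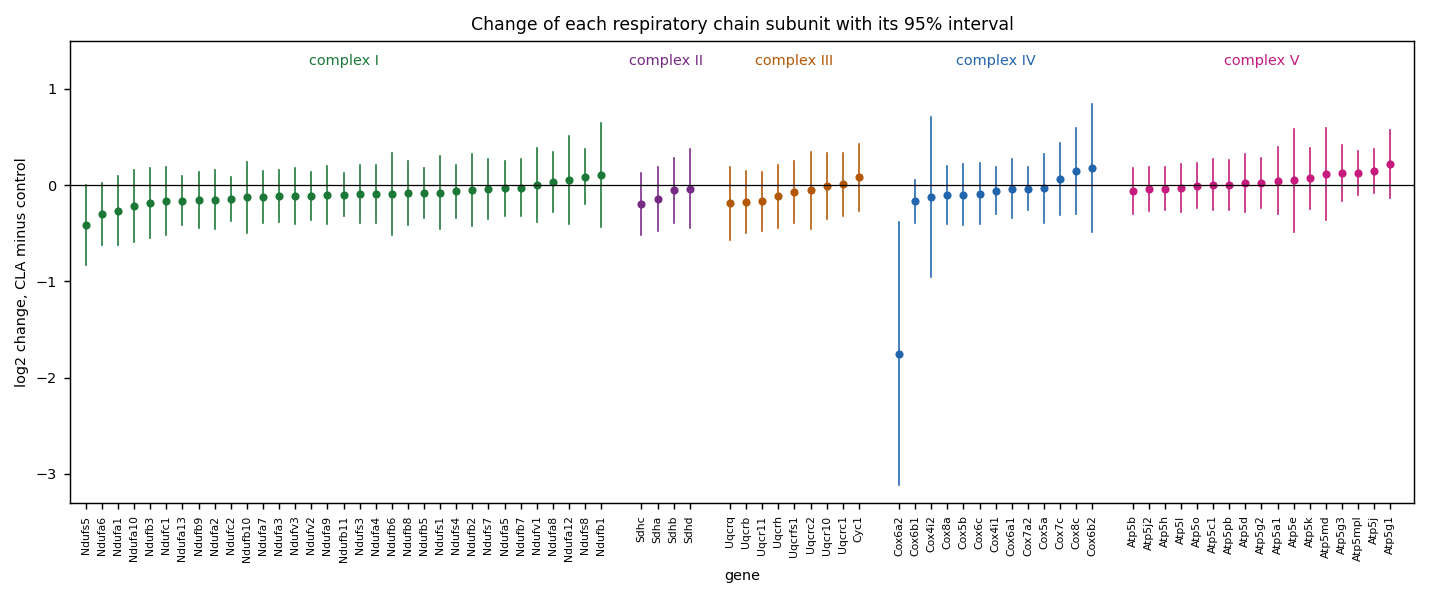
Log2 change of signal, CLA minus control, of the 76 members tested (y axis), grouped by complex and ordered by size within it (x axis), with points for the estimate and lines for limma's 95% interval (3 control and 4 CLA arrays). Apart from Cox6a2 at -1.75, every point lies between -0.41 and 0.22, and the interval of Cox6a2 is the only 1 that does not reach 0.

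The groups did not overlap for 3 of 76 members, Ndufc2, Atp5j and Atp5mpl, against 5.31% of all genes. That is 1 member lower in CLA glands, against 2.67% of all genes, and 2 higher, against 2.64%, so the counts were at or below the background.

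Complex I, the entry point for NADH, had the most members. Ndufs5, an accessory subunit, had signals of 566, 680 and 460 in control and 389, 383, 481 and 439 in CLA glands, listed here and later in the order of the replicates. Control replicate 3 lay below CLA replicate 3, so the groups overlapped. The change was -0.41 ± 0.19 (SE; limma adjusted p = 0.904), and its 95% interval ran from -0.83 to 0.01. This gene had 1 probe set, with a geometric mean signal of 476, lower than the other tested complex I members except Ndufb1. Its unadjusted limma p was 0.0524. That p fell under 0.05 without control replicate 3, without CLA replicate 3, as means of probe sets and with the Actb 3′ over 5′ signal in the fit.

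Ndufa6, an accessory subunit of the arm in the matrix, had signals of 4976, 6478 and 5900 in control and 4030, 4519, 5241 and 5012 in CLA glands. Control replicate 1 lay among the CLA values, and the other control arrays lay above all of them. The change was -0.30 ± 0.14 (SE; limma adjusted p = 0.904), 1.23-fold lower in CLA glands. Its unadjusted p was 0.0642 and passed 0.05 without control replicate 1, without CLA replicate 3, with the title number as a block, with the Actb 3′ over 5′ signal in the fit and in the arrays with title numbers starting with 28.

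Ndufc2, a small membrane subunit, had 11422, 12367 and 11389 in control and 10445, 10476, 10337 and 11199 in CLA glands. All CLA values lay below all control values, by a narrow margin. The change was -0.14 ± 0.10 (SE; limma adjusted p = 0.946), and its 95% interval ran from -0.37 to 0.08. Its other probe sets above the filter had changes of -0.10 and -0.00405.

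Ndufb9, the complex I member of highest mean signal, had 13356, 16324 and 12235 in control and 14044, 12040, 11528 and 12324 in CLA glands. The groups overlapped widely, and the change was -0.16 ± 0.13 (SE; limma adjusted p = 0.967). The mean over its probe sets gave 0.27. That value rests on a probe set with signals between 12.1 and 59.7, below the filter on 6 of 7 arrays. The other 2 probe sets of Ndufb9 had changes of -0.16 and -0.14.

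By name class, changes were below 0 for 10 of 12 Ndufa members, with a median of -0.12, for 9 of 10 Ndufb members tested, with a median of -0.09, and for 7 of 9 Ndufs and Ndufv members, with a median of -0.08. The last class holds the subunits that carry the flavin and the iron-sulphur clusters. Among them Ndufs1, the largest subunit, had -0.08 ± 0.17 (SE), Ndufv1, which binds NADH, 0.00 ± 0.17, and Ndufs8 0.09 ± 0.13. The highest change of complex I was that of Ndufb1, at 0.10 ± 0.24. Ndufa4, placed in complex I by name but known as a subunit of complex IV, had -0.09 ± 0.13, and moving it left the medians of complexes I and IV at -0.10 and -0.07.

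Complex II, succinate dehydrogenase, is also an enzyme of the citric acid cycle and has only 4 subunits. Sdhc, a membrane anchor, had signals of 4952, 5803 and 4819 in control and 3807, 4553, 4502 and 5324 in CLA glands. CLA replicate 4 lay between the control values and the other CLA arrays below them all. Its change was -0.20 ± 0.14 (SE; limma adjusted p = 0.952). Sdha, the flavoprotein that oxidises succinate, had 7057, 5560 and 5374 in control and 5925, 5242, 4552 and 5894 in CLA glands. Only control replicate 1 stood above the range of the others, and the change was -0.15 ± 0.15 (SE; limma adjusted p = 0.985). Another bright probe set of Sdha had 4648, 4507 and 3719 in control and 3208, 3213, 3478 and 3669 in CLA glands. Its change was -0.33, and its groups lay apart by a narrow margin, as in 2.67% of all genes in this direction. Overlap was not counted over all probe sets of the members. A dim probe set of Sdha above the filter had -0.19. Sdhb, the iron-sulphur subunit, had 8812, 7624 and 6705 in control and 7381, 7452, 6119 and 8811 in CLA glands. The groups spanned nearly the same range, with a change of -0.05 ± 0.15 (SE) that was 0.03 after median centring. Sdhd, the other anchor, had -0.04 ± 0.18. The median of the complex was -0.10 with all arrays, 0.01 without control replicate 1, -0.02 without CLA replicate 3, -0.17 without CLA replicate 4 and -0.19 without control replicate 3.

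Complex III passes electrons from ubiquinol to cytochrome c. Uqcrb, which binds ubiquinone, had signals of 26795, 29417 and 25299 in control and 25908, 26117, 26353 and 18684 in CLA glands. CLA replicate 4 stood below the other 6 arrays, which overlapped. The change was -0.17 ± 0.14 (SE; limma adjusted p = 0.966). Uqcr11, a small subunit, had 6527, 8007 and 7096 in control and 5443, 6306, 6539 and 7432 in CLA glands. These overlapped, with a change of -0.17 ± 0.14 (SE; limma adjusted p = 0.966). Of the subunits that carry redox centres, Cyc1, cytochrome c1, had 0.08 ± 0.15 and Uqcrfs1, the Rieske iron-sulphur protein, -0.07 ± 0.14. The median of the complex was -0.07, -0.18 without control replicate 3, -0.11 without CLA replicate 1, -0.02 without control replicate 1, 0.01 without CLA replicate 3, and 0.03 in the arrays with title numbers starting with 28.

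Complex IV, cytochrome c oxidase, reduces oxygen to water, and its nuclear-encoded subunits surround a core encoded in mitochondrial DNA. Several of them exist as tissue forms. Cox6a2 is the form of heart and skeletal muscle. Its signal was 216, 1572 and 333 in control and 229, 109, 95.6 and 179 in CLA glands. Control replicate 2 stood far above the rest, and CLA replicate 1 lay above control replicate 1, so the groups overlapped. The change was -1.75 ± 0.61 (SE), 3.36-fold lower in CLA glands, with a 95% interval from -3.12 to -0.38, an unadjusted limma p of 0.0174 and a limma adjusted p of 0.817.

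Skeletal muscle markers moved with Cox6a2. The summed signal of the 20 markers, all of which had a value, was 13244, 124196 and 21585 in control and 19705, 776, 2818 and 973 in CLA glands. Of these markers only Tnni1, of slow fibres, was below the filter signal on every array. Of the 18 muscle markers tested, 18 had a change below 0, against 44.7% of all genes. At an unadjusted limma p under 0.05, 17 were lower in CLA glands, against 3.01% of all genes. The smallest limma adjusted p of a marker was 0.688. Their median change was -3.79, and the groups overlapped. The markers share arrays, so these counts are not independent observations. Without control replicate 2 the change of Cox6a2 was -0.90 with an unadjusted p of 0.0519, and after adding the muscle score to the fit it was -0.32 with an unadjusted p of 0.673. Between control replicate 1 and CLA replicate 1, the arrays whose title numbers start with 27, Cox6a2 was 216 against 229. In the arrays with numbers starting with 28 its change was -2.55, with an unadjusted p of 0.00478 and a limma adjusted p of 0.286. The part of muscle in the change of Cox6a2 was not tested beyond these values.

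Cox6a1, the form of Cox6a2 found in most tissues, had no such high array among the controls. Its signals were 20430, 23033 and 24307 in control and 21629, 19533, 20255 and 27155 in CLA glands, and CLA replicate 4 was the highest of all arrays. The change was -0.04 ± 0.14 (SE; 95% interval -0.34 to 0.27), and it was 0.01 after quantile normalization and 0.04 after median centring. Its sign also changed without control replicate 3, without CLA replicate 2 and without CLA replicate 3.

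**Figure D2:**
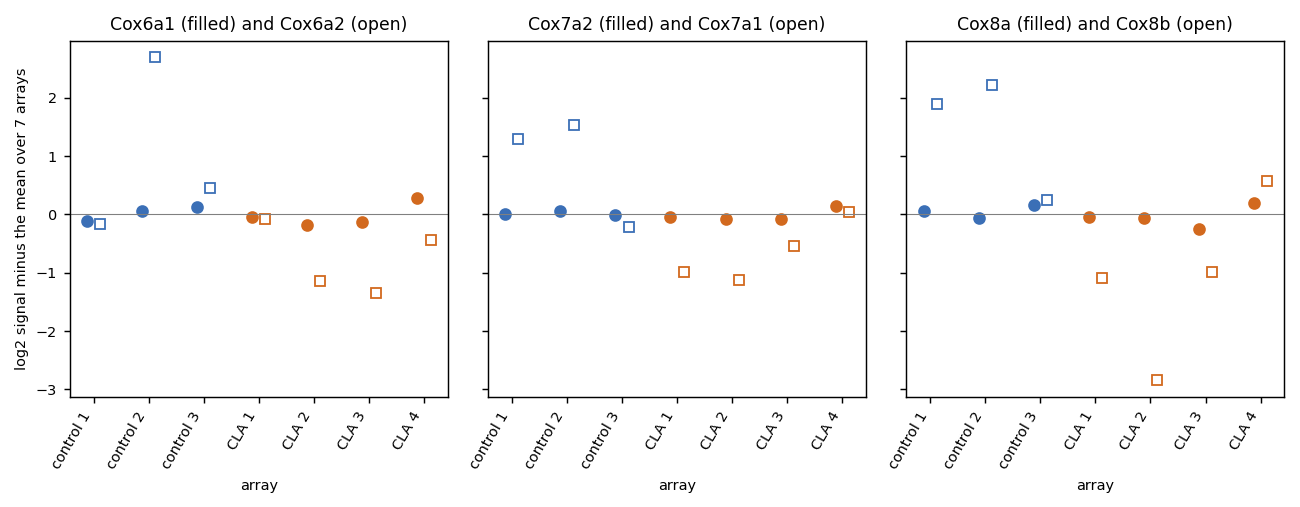
Log2 signal centred on each gene's own mean of 7 arrays (y axis) on each array (x axis; blue for control, orange for CLA) for the widespread form (filled circles) and the muscle or brown fat form (open squares) of 3 complex IV subunits. The widespread forms stay within about 0.3 of their mean, while Cox6a2 is high on control replicate 2 alone and Cox7a1 and Cox8b are high on control replicates 1 and 2.

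The tissue forms Cox7a1 and Cox8b, which are no members, were highest on control replicate 2 like Cox6a2, and were high on control replicate 1 as well. Both are known from muscle and brown fat. Cox7a1 had 1457, 1733 and 515 in control and 301, 273, 413 and 617 in CLA glands. Cox8b had 4795, 6027 and 1541 in control and 611, 180, 650 and 1916 in CLA glands. In both genes CLA replicate 4 lay above control replicate 3, so the groups overlapped, and the changes were -1.52 ± 0.42 and -2.54 ± 0.71 (SE; limma adjusted p = 0.688 for each). The other brown adipocyte markers, 7 with a value, summed to 9990, 9380 and 1497 in control and to 740, 523, 949 and 2599 in CLA glands, with none below the filter on all arrays. The part of brown fat in these changes was not tested. Their partners with wide expression had values near 0, Cox7a2 -0.04 ± 0.10 and Cox8a -0.10 ± 0.13. Cox7a2l, which joins complexes III and IV, had 4474, 4375 and 5069 in control and 4939, 4950, 4446 and 4359 in CLA glands, with a change of 0.01 ± 0.12.

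**Figure D3:**
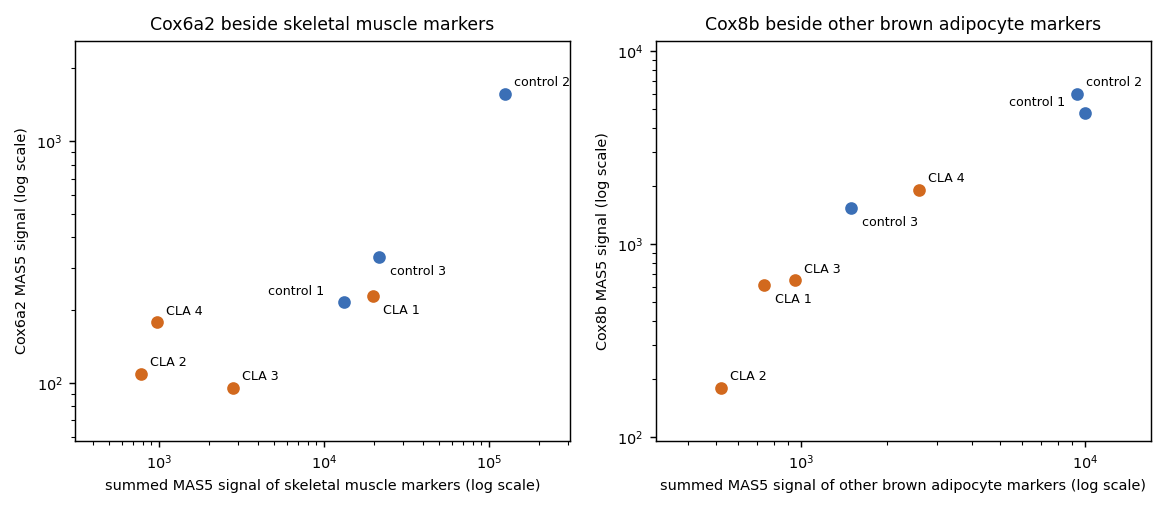
MAS5 signal of a tissue form (y axis, log scale) against the summed signal of marker genes (x axis, log scale) on the 7 arrays, for Cox6a2 with skeletal muscle markers (left) and Cox8b with the brown adipocyte markers other than Cox7a1 and Cox8b (right). Control replicate 2 is highest for Cox6a2 and for the muscle markers, and control replicates 1 and 2 are highest for Cox8b and its markers.

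None of the other complex IV subunits had an unadjusted p under 0.05. Cox6b1, the subunit that holds the monomers of the dimer together, had 23494, 24025 and 20843 in control and 21461, 19741, 20219 and 19509 in CLA glands. Control replicates 1 and 2 lay above all CLA arrays and control replicate 3 among them. The change was -0.17 ± 0.10 (SE; limma adjusted p = 0.931). Cox6b2, its testis form, had 144, 89.7 and 97.1 in control and 109, 162, 92.8 and 136 in CLA glands, and the change of 0.18 ± 0.30 has a wide interval, from -0.49 to 0.84.

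Cox4i2, the form of lung and of low oxygen, had 62.4, 90.4 and 63.5 in control and 39.8, 88.4, 61.1 and 83.3 in CLA glands, near the filter signal, with a change of -0.13 ± 0.37 (SE) that turned to 0.05 without control replicate 2 and to 0.11 without CLA replicate 1. Its widespread partner Cox4i1 had -0.06 ± 0.11. Cox8c, a testis form, had 303, 210 and 317 in control and 313, 308, 298 and 288 in CLA glands. Control replicate 2 stood below the other 6 arrays, and the change was 0.15 ± 0.20 (SE), or -0.04 without that array. Cox7c was represented by a dim probe set with signals between 302 and 368 and had 0.06 ± 0.17.

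Complex V makes ATP in a catalytic head that is driven by a rotating ring in the membrane. Atp5j, a subunit of the stalk that holds the head in place, had signals of 8532, 9188 and 8961 in control and 9328, 9652, 10073 and 10296 in CLA glands. All CLA arrays lay above all control arrays. The change was 0.15 ± 0.10 (SE), 1.11-fold higher in CLA glands, with a 95% interval from -0.08 to 0.37 and a limma adjusted p of 0.946.

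Atp5mpl, a small membrane subunit, was also separate between the groups, with 6820, 6761 and 6911 in control and 7273, 7575, 7289 and 7715 in CLA glands. The control arrays differed by less from each other than from any CLA array. The change was 0.13 ± 0.10 (SE; limma adjusted p = 0.963), and the error is moderated towards that of other genes of like signal. Both Atp5j and Atp5mpl had a single probe set.

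The membrane ring is built from copies of subunit c, which Atp5g1, Atp5g2 and Atp5g3 encode with the same mature sequence. Atp5g1 had 7745, 5573 and 6024 in control and 7730, 7570, 6158 and 8472 in CLA glands. Control replicate 1 lay within the CLA range and the other control arrays below it. The change was 0.22 ± 0.16 (SE; limma adjusted p = 0.946), the highest of all members. Without control replicate 1 its unadjusted p passed 0.05. Atp5g3 had 23779, 19859 and 22359 in control and 26079, 25661, 19609 and 24941 in CLA glands, where CLA replicate 3 was the lowest array and the other CLA arrays the highest. Its change was 0.12 ± 0.13 (SE; limma adjusted p = 0.985), and Atp5g2 had 0.02 ± 0.12.

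The 5 subunits of the head and its central stalk had a median change of 0.02. Atp5a1 and Atp5b, which form the catalytic ring, had 0.05 ± 0.16 and -0.06 ± 0.11. Over all 17 members of complex V, the changes ran from -0.06 to 0.22, a narrower range than the -0.41 to 0.10 of complex I.

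A score was then formed for each complex on each array, the mean over its tested members of the log2 signal after each gene was centred on its own average. The complex I score was 0.05, 0.14 and -0.02 in control and -0.14, -0.07, -0.07 and 0.105 in CLA glands. CLA replicate 4 lay within the control range and the other CLA arrays below it. The means were 0.06 ± 0.08 (SD, n = 3) and -0.04 ± 0.10 (SD, n = 4), so the difference of -0.10 was about as large as the spread between arrays of a group. The complex V score was -0.03, -0.01 and -0.03 in control and -0.05, 0.03, -0.07 and 0.17 in CLA glands. Here CLA replicates 1 and 3 lay below all control arrays and CLA replicates 2 and 4 above them, with means of -0.03 ± 0.01 (SD, n = 3) and 0.02 ± 0.11 (SD, n = 4).

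CLA replicate 4 had the highest CLA score in every complex and CLA replicate 3 the lowest in complexes II to V. RNA integrity was read from the Actb control probe sets, whose 3′ signal over 5′ signal was 2.78 for CLA replicate 3 and 1.41 to 1.88 elsewhere. White adipocyte markers, 13 with a value and none below the filter on all arrays, summed to 66193 on CLA replicate 4, to between 24413 and 36133 on the other CLA arrays and to between 72308 and 89767 in control glands. With the Actb 3′ over 5′ signal in the fit, the median changes of complexes I to V were -0.12, -0.05, -0.01, -0.04 and 0.04. The part of fat content in these scores was not tested, and that of RNA integrity not beyond these medians.

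**Figure D4:**
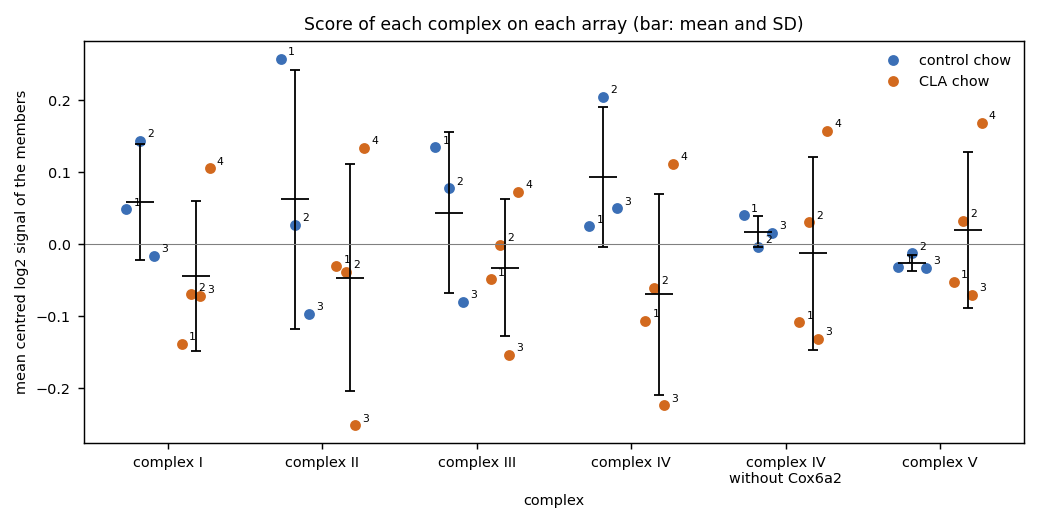
Score of each complex on each array (y axis, mean of the members' log2 signal after each gene was centred on its mean over the 7 arrays), for control (blue, n = 3) and CLA arrays (orange, n = 4) with replicate numbers beside the points and black bars for mean and SD. The groups overlap in every complex, CLA replicate 4 is the highest CLA array throughout, and leaving out Cox6a2 lowers control replicate 2 in complex IV.

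Within an array, complex V was higher relative to complex I in CLA glands. The complex V score minus the complex I score was -0.08, -0.16 and -0.02 in control and 0.09, 0.10, 0.00 and 0.06 in CLA glands. All CLA arrays lay above all control arrays, CLA replicate 3 by the least. The means were -0.08 ± 0.07 (SD, n = 3) and 0.06 ± 0.04 (SD, n = 4), a difference of 0.15, in which a constant scaling of an array cancels. It was 0.17 between the arrays with title numbers starting with 27 and 0.14 between those starting with 28. With the mean of each gene's probe sets it was 0.12, and the groups remained separate, from -0.11 to -0.05 in control and from 0.02 to 0.09 in CLA glands. Of the 10 pairs of complexes 2 were separate between the groups, this and complex V minus complex IV, with a difference of 0.21. Without Cox6a2 the latter was -0.07, -0.01 and -0.05 in control and 0.06, 0.00, 0.06 and 0.01 in CLA glands, which were still separate, with a difference of 0.08. These pairs were singled out after their values were seen, both hold the complex V score, and no test was made of them.

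Probe sets of a gene differed by amounts that were small on the log2 scale but not small beside the changes of the members. Of the 78 members 31 had a single probe set, and 44 had more than 1 probe set above the filter signal. For these 44, the median spread of the log2 change between probe sets was 0.10, beside a median change of -0.06 over all members tested. The sign differed in 16. In complex V it differed in Atp5a1, Atp5d, Atp5g2, Atp5h, Atp5j2, Atp5k and Atp5pb, and was the same in Atp5c1 and Atp5o. The widest spread was in Ndufa12, an accessory subunit of complex I, from -0.78 on a probe set of signals between 106 and 296 to 0.05 on the brightest. Names ending in _s_at or _x_at mark probe sets that may bind more than 1 transcript. They represented 12 and 3 of the 76 members tested, and for these, any signal from a related gene cannot be told apart. The 14 member probe sets below the filter signal, 2 of which represent a gene, had changes from -3.24, for the other probe set of Cox6a2, to 1.54, for one of Sdha.

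**Figure D5:**
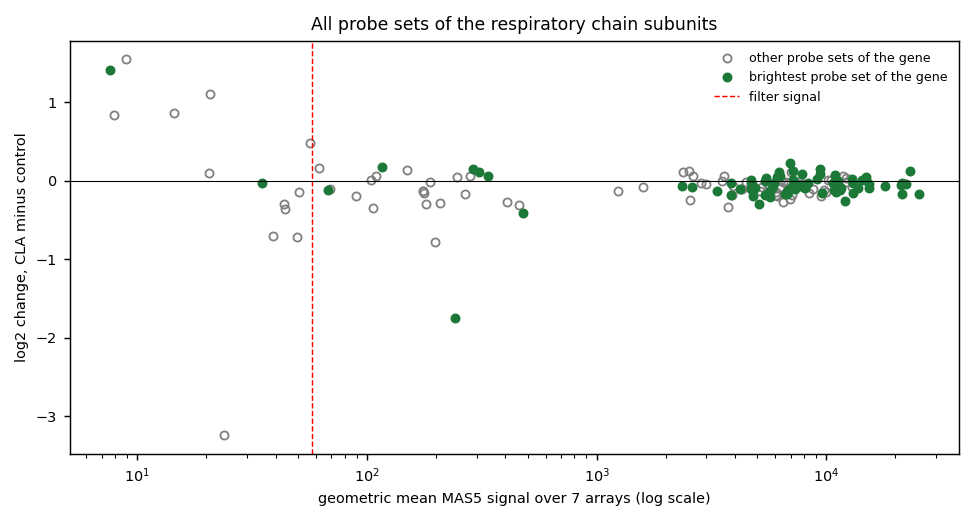
Log2 change, CLA minus control (y axis), against the geometric mean signal over the 7 arrays (x axis, log scale) for all 159 probe sets of the 78 members, with the brightest probe set of each gene filled and the filter signal of 57.7 as a dashed line. The points narrow towards 0 at high signal, and the widest changes, -3.24 for a probe set of Cox6a2 and 1.54 for one of Sdha, lie below the filter, while the brightest probe set of Cox6a2 lies above it at -1.75.

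Genes that work with the chain were counted from lists, and for each list the genes of smallest p are given. Of the assembly factors, which build the complexes and are not part of them, 40 were tested, with a median change of 0.00 and 20 below 0. Ndufaf1, which assembles complex I, had 578, 593 and 554 in control and 439, 450, 490 and 418 in CLA glands. All its CLA arrays lay below all control arrays. Its change was -0.36 ± 0.15 (SE; unadjusted p = 0.0388, limma adjusted p = 0.886), and it was the only assembly factor at an unadjusted p under 0.05 and the only one whose groups did not overlap. That is 2.5% of the 40, against 5.39% of all genes at that p and 5.31% without overlap. The median was 0.02 for the 13 factors of complex I, 0.03 for the 4 of complex II, 0.02 for the 5 of complex III, -0.04 for the 14 of complex IV and -0.04 for the 4 of complex V.

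Acad9, which also builds complex I, had 1687, 2324 and 1647 in control and 2285, 2076, 3004 and 1710 in CLA glands. Cox17, the copper chaperone of complex IV, had 4097, 5423 and 3005 in control and 2992, 2704, 4068 and 3116 in CLA glands. Atpaf1, which builds the head of complex V, had 700, 620 and 595 in control and 689, 787, 683 and 742 in CLA glands. Each of these overlapped between the groups, with changes of 0.25 ± 0.21, -0.35 ± 0.21 and 0.18 ± 0.15 (SE). Further changes were -0.27 ± 0.16 for Coa5 of complex IV, 0.20 ± 0.21 for Uqcc2 and -0.14 ± 0.17 for Ttc19 of complex III, 0.10 ± 0.18 for Sdhaf4 and -0.05 ± 0.21 for Sdhaf2 of complex II, and -0.06 ± 0.16 for Tmem70 of complex V.

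A list of electron carriers that feed the chain or work within it, and of ubiquinone synthesis, had a median change of -0.29 over 6 genes. Of these 2 had an unadjusted p under 0.05, both lower in CLA glands, where 3.01% of all genes were, and the number of genes is too small to read a share from. Etfb, a subunit of the flavoprotein that takes electrons from fatty acid oxidation, had 4784, 4583 and 3485 in control and 3272, 2965, 2826 and 3931 in CLA glands. Only CLA replicate 4 reached into the control range, and the change was -0.40 ± 0.16 (SE; limma adjusted p = 0.878). Coq9, needed to make ubiquinone, had 2512, 3034 and 2564 in control and 1926, 2172, 2228 and 2393 in CLA glands. Its groups did not overlap, as in 2.67% of all genes in this direction, with a change of -0.31 ± 0.14 (SE; limma adjusted p = 0.904). Cytochrome c, encoded by Cycs, had 14207, 16362 and 9574 in control and 10826, 10677, 11074 and 10804 in CLA glands. The CLA arrays were close together between the control values, with a change of -0.27 ± 0.17 (SE; limma adjusted p = 0.931).

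Citric acid cycle enzymes had a median change of -0.14, with 11 of 13 below 0, against 44.7% of all genes. There were 2 at an unadjusted p under 0.05, both lower in CLA glands, against 3.01% of all genes. Ogdh, of the oxoglutarate dehydrogenase complex, had 2956, 3852 and 2725 in control and 2077, 2392, 2497 and 2700 in CLA glands. Its groups lay apart by a narrow margin, as in 2.67% of all genes in this direction, with a change of -0.39 ± 0.16 (SE; limma adjusted p = 0.878). Of the 13 enzymes, 1 was separate in the other direction, higher in CLA glands, against 2.64% of all genes. Suclg1, a subunit of succinyl-CoA ligase, had 6535, 6378 and 5258 in control and 4851, 4995, 4733 and 5355 in CLA glands. CLA replicate 4 lay above control replicate 3, and the change was -0.28 ± 0.12 (SE; limma adjusted p = 0.904).

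Proteins of the mitochondrial membranes had a median change of 0.10, with 3 of 13 below 0, against 44.7% of all genes, and 0 at an unadjusted p under 0.05 by limma. The prohibitin gene Phb2 had 6334, 6009 and 6056 in control and 6500, 7244, 7073 and 9798 in CLA glands. All CLA arrays lay above all control arrays, CLA replicate 4 by the most, as in 2.64% of all genes in this direction, with a change of 0.30 ± 0.15 (SE; limma adjusted p = 0.904). The import gene Tomm22 had 3825, 2327 and 2886 in control and 3766, 3814, 2788 and 3767 in CLA glands, which overlapped, with a change of 0.25 ± 0.19 (SE).

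Of 16 transcriptional and replication regulators of mitochondria 0 had an unadjusted p under 0.05 by limma, and the median was 0.06. Ppargc1b, a coactivator of respiratory genes, had 672, 601 and 477 in control and 318, 445, 221 and 596 in CLA glands. Only CLA replicate 4 lay in the control range, and the change was -0.64 ± 0.32 (SE; limma adjusted p = 0.904). Esrra, the nuclear receptor it activates, had 803, 1138 and 1006 in control and 618, 893, 716 and 881 in CLA glands, which overlapped, with a change of -0.34 ± 0.19 (SE; limma adjusted p = 0.931).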

How the data were processed

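RNA of 7 mammary glands was measured on Affymetrix arrays with 1 colour and 45101 probe sets. The values are linear signal intensities that the authors made with MAS5, per the submitters' processing notes, and the mean of each array after trimming 2% at each end was 500.003. The MAS5 version and the annotation used upstream are not given in the labels. Values under 1 were raised to 1 before log2. Of the probe sets, 34945 had 1 gene symbol, 932 several and 9160 none, beside 64 controls, and only those with 1 symbol were used. For 34741 the symbol was looked up in a RefSeq table (GRCm38.p6). Genes whose mean lay below the 40th percentile of probe sets were not tested, which left 12497 of 18193.

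Limma 3.58.1 in R 4.3.3 (lmFit, eBayes with trend) fitted CLA against control, two-sided and without covariates, with Benjamini-Hochberg adjustment across the 12497 genes. The script was tested on simulated data. Each array was taken as 1 animal; if glands shared more than the labels say, p-values measure only the spread between these arrays. Precision is limited by having few arrays. Titles carry numbers that start with 27 (control 1 and CLA 1) or 28 (the others), of unstated meaning, treated as a possible batch.

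Members and gene lists were chosen with earlier results of these data known. Values on every array are given for the member of highest signal and the 2 of smallest p in each complex, for members whose groups did not overlap, for tissue forms, and for Cox7a1, Cox8b, Cox7a2l, Cycs and most of the 2 genes of smallest p of each related list. Other members were chosen by role after their values were seen. Alternatives were quantile normalization, median centring, pseudocounts of 16 and 64, means of probe sets, the 60th percentile or no filter for dim genes, robust eBayes, the title number as a block, arrays starting with 28, the muscle score as a covariate and leaving out each array. Alternatives added after seeing the data were the Actb 3′ over 5′ signal in the fit, Ndufa4 in complex IV, the omission of Cox6a2 (from complex V minus complex IV too), and complex V minus complex I. Figures used matplotlib 3.10.9 in Python 3.11.15.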

Additional observations from a re-analysis of the deposited data

Results flagged for a closer look

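In 7 of 124 examined sets of CLA values, which are 5.65%, 1 array lay far from the other 3, where chance gives about 1 in 20. CLA replicate 4 was far above the other CLA arrays for the white adipocyte score (0.29), Ndufa3 (log2 signal 13.64) and Ndufc2 (13.45), and far below for Uqcrb (14.19). CLA replicate 3 was far below for Atp5g3 (14.26) and Tomm22 (11.45) and far above for Ndufb6 (12.8).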

How the results depend on the processing

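Limma called 0 members at an adjusted p under 0.05 under each of the 19 alternatives fitted to all genes. No paired analysis was possible because the titles give the groups no shared replicate numbers. Over all genes 1 was called in the arrays with title numbers starting with 28, and 0 to 17 with an array left out, 17 without CLA replicate 4 and 2 without control replicate 1. Members at an unadjusted limma p under 0.05 numbered 2 as means of probe sets, which is 2.63%, against 5.36% of all genes. There were also 2 with the title number block (against 7.48% of all genes) and 2 in the arrays starting with 28 (against 9.72%). With the Actb 3′ over 5′ signal in the fit there were 3, which is 3.95%, against 7.74% of all genes. There were 0 with the muscle score as a covariate (against 2.3%) and 0 when Cox6a2 was not counted (against 5.39%). With an array left out the members numbered 0 to 4. There were 0 without control replicate 2, against 2.99% of all genes. Without control replicate 1 there were 4, which is 5.26%, against 11% of all genes. The median of complex III ran from -0.18 to 0.0087 with an array left out, the former without control replicate 3. The other 135 medians moved by less than the spread between arrays, although some changed sign, among them complex V at -0.0088 as means of probe sets. The median of complex V minus that of complex I ran from 0.088 to 0.17. Of 359 values of 19 named members, 21 had the other sign. As means of probe sets these were Atp5g1 (-0.037), Cox8c (-0.28), Ndufb9 (0.27) and Sdha (0.22). With the muscle score they were Cox6b2 (-0.31), Cox8c (-0.022), Ndufb9 (0.087) and Uqcrb (0.028). In the arrays starting with 28 they were Cox4i2 (0.016) and Sdhb (0.046). After scaling they were Cox6a1 (0.0070 by quantile, 0.043 by median) and Sdhb (0.026 by median). With an array left out Cox4i2 ran from -0.27 to 0.11, Cox6a1 from -0.14 to 0.019, Cox8c from -0.040 to 0.26 and Sdhb from -0.15 to 0.046. The cause was not tested, except that the means of probe sets for Atp5g1, Cox8c, Ndufb9 and Sdha each hold a probe set with a mean signal below the filter.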
